A study of Mus musculus with 6 samples.

Results

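The 47 genes described here encode the core autophagy machinery, its cargo receptors, mitophagy receptors and the transcription factors Tfeb and Tfe3. They were chosen by name from 21827 protein-coding genes of the mouse annotation, and their open chromatin was read from ATAC-seq peak lists, in which an open site is a stretch of DNA that the transposase cuts more often than its surroundings. The libraries came from stromal vascular fraction cells of male wild type C57 mice aged 3 to 4 weeks, differentiated in culture for 7 days, with 2 libraries per condition. Beige cultures came from inguinal white adipose tissue and received 5 μM dexamethasone, 1 nM T3, 1 μM rosiglitazone, 0.5 mM IBMX and 5 μg/ml insulin. White cultures came from the same depot and received 1 μM dexamethasone, 0.5 mM IBMX and 5 μg/ml insulin, without T3 or rosiglitazone. Brown cultures came from brown adipose tissue and received the beige medium, which rests on the labels alone, since the paper does not describe these libraries. All concentrations are those of the labels; the paper's methods give other insulin concentrations, unequal between the beige and white media. By the labels, the Beige and White conditions thus differed in medium, Brown and Beige in depot, and Brown and White in both, which cannot be told apart. The paper lists the Beige and White files alone and the labels name no batch. Whether the Brown libraries were made in a separate experiment is thus not known, and such a difference could not be told apart from depot. All cultures were in vitro models of adipocytes that can keep undifferentiated cells of the fraction. With 2 libraries against 2, an exact permutation test cannot give a two-sided p below 0.33.

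Autophagy encloses cytoplasm in a double membrane and delivers it to lysosomes. The ULK1 kinase complex starts the process, the phosphatidylinositol 3-kinase complex marks the membrane with lipid, ATG9 and ATG2 proteins supply it with lipid, and 2 linked conjugation systems attach ATG8 proteins to it. Cargo receptors then bind both ATG8 proteins and the load, and dedicated receptors do so for mitochondria. In beige adipocytes the pathway is known for clearing mitochondria when the cells revert to a white appearance, and Tfeb and Tfe3 are known to drive lysosome and autophagy genes through E-boxes. The study of origin is about Ets1, an ETS factor whose family recognizes a GGAA core, and the genes it examined include Atg2a, Atg3, Atg5, Atg101, Ulk1, Atg9a, Atg10 and Pink1.

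The promoter windows below are shown because they hold the ETS match CCGGAAG or the E-box match CACGTG near the start site of a gene that the results turn on. Capitals mark the match, which on the other strand reads CTTCCGG for ETS. All are mm10 sequence, written along the strand of the gene.
Atg3, ETS, chr16:45158666-45158687, plus strand: agcgCTTCCGGggggcgggccg
Atg3, first E-box, chr16:45158707-45158770, plus strand: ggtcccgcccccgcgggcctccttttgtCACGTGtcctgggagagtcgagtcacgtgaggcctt
Atg3, second E-box, chr16:45158728-45158784, plus strand: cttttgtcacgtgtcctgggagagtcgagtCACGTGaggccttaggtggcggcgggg
Atg101, ETS, chr15:101284216-101284271, plus strand: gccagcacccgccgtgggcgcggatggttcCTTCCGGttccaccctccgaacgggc
Atg16l1, ETS, chr1:87755976-87756012, plus strand: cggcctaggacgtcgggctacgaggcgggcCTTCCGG
Gabarapl2, ETS, chr8:111940636-111940702, plus strand: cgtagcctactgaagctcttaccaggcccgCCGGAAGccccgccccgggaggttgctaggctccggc
Atg14, E-box, chr14:47568419-47568446, minus strand: aaacaaaatccCACGTGactggccctga
Bnip3, E-box, chr7:138909579-138909644, minus strand: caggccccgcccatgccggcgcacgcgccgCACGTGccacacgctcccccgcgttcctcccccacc

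The next windows lie far from any start site, where peaks were called in some conditions and not in others. Among such regions they were chosen for print because they hold a motif match. The same stretch held no match in the second Uvrag region, the Atg10 region of Beige and Brown, and the Ambra1 and Atg16l2 regions described below. The printed windows run 60 bp to each side of the strongest summit in mm10, on the plus strand. Capitals mark matches to the CTCF core (CANNAG followed at once by NNGGC) in the first 3, and to C/EBP (TTGCNNAA) and then AP-1 (TGANTCA) in the last, in either orientation.
Uvrag intron, Beige and White, chr7:99107702-99107822: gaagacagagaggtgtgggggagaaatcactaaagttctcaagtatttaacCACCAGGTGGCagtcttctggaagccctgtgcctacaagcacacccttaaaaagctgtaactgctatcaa
Wipi1 upstream, Beige, chr11:109619214-109619334: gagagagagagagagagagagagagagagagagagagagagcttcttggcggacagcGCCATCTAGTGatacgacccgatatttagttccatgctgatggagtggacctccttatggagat
Atg4a downstream, Beige, chrX:141175535-141175655: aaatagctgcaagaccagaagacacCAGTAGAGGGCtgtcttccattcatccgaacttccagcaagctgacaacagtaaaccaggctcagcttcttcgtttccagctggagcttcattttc
Atg10 intron, White, chr13:91118288-91118408: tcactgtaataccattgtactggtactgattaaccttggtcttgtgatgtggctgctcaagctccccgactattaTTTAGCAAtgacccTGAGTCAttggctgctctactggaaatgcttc

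The 6 lists held 109143 to 127490 peaks, fewest in Brown replicate 2 and most in Beige replicate 2, with median widths of 246 to 267 bp. They hold no read counts, so depth cannot be read from them. The study states totals for the Beige and White libraries, with more mapped reads in both White libraries than in either Beige library. By the same account the percent of reads that mapped was lower in both Beige libraries, while total reads were closer. These figures were not used here, and the part of depth or of mapping in the results was not tested. A promoter peak was the strongest peak with its summit within 1 kb of a start site of a protein-coding transcript, and its level was its rank percentile, the percent of peaks in the same library with a lower fold enrichment. All 6 adipocyte markers, Adipoq, Fabp4, Plin1, Pparg, Lipe and Cidec, had a promoter peak in all 6 libraries. Their percentiles differed widely, at 2.53 to 62.1 for Adipoq and 5.23 to 58.5 for Plin1. Fabp4 and Cidec stood at 29.2 to 81.2, and Pparg and Lipe at 66.0 to 88.3. Of the 4 brown markers, Ebf2 and Lhx8 had one in all 6 libraries, Zic1 in both Brown libraries and Beige replicate 2, and Ucp1 in the Brown libraries alone, at percentiles of 9.12 and 4.22. Of the markers of other cells, 3 of 4 for progenitors, 2 of 4 for macrophages and 3 of 4 for endothelium had a promoter peak in all 6 libraries. Their percentiles were 41.7 to 88.0 for progenitors, 0.727 to 59.8 for macrophages and 65.4 to 89.8 for endothelium. Ly6a, Csf1r, Ptprc and Cdh5 had no promoter peak in any library, and the part of other cells in the results was not tested. Across promoters, White replicates 1 and 2 were less alike (r = 0.870) than the Beige (r = 0.931) or Brown pair (r = 0.929), and White replicate 1 was closer to Brown replicates 1 and 2 (r = 0.887 and 0.874) than to White replicate 2, where r is a correlation across 13531 genes, which are not independent replicates.

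Nearly all of the autophagy promoters were open in every culture. Of the 47 genes, 46 (97.9%) had a promoter peak in all 6 libraries, against 62.0% of all protein-coding genes. Their median percentile was 93.4 and 93.3 in Beige replicates 1 and 2, 93.0 and 89.1 in White replicates 1 and 2, and 93.4 and 94.5 in Brown replicates 1 and 2. The same medians over the 13531 genes with a promoter peak in all 6 libraries were 89.2 and 87.9, 88.7 and 85.8, and 89.4 and 90.8. White replicate 2 was thus the lowest library for the autophagy genes and for all genes alike. In each library 29 to 35 of the 46 genes lay above the median of all genes, and 27 (58.7%) had a mean percentile of at least 90, as did 44.7% of all genes with such peaks. Their peaks were 768 to 943.5 bp wide at the median, against 681 to 854 bp for all genes.

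**Figure D1:**
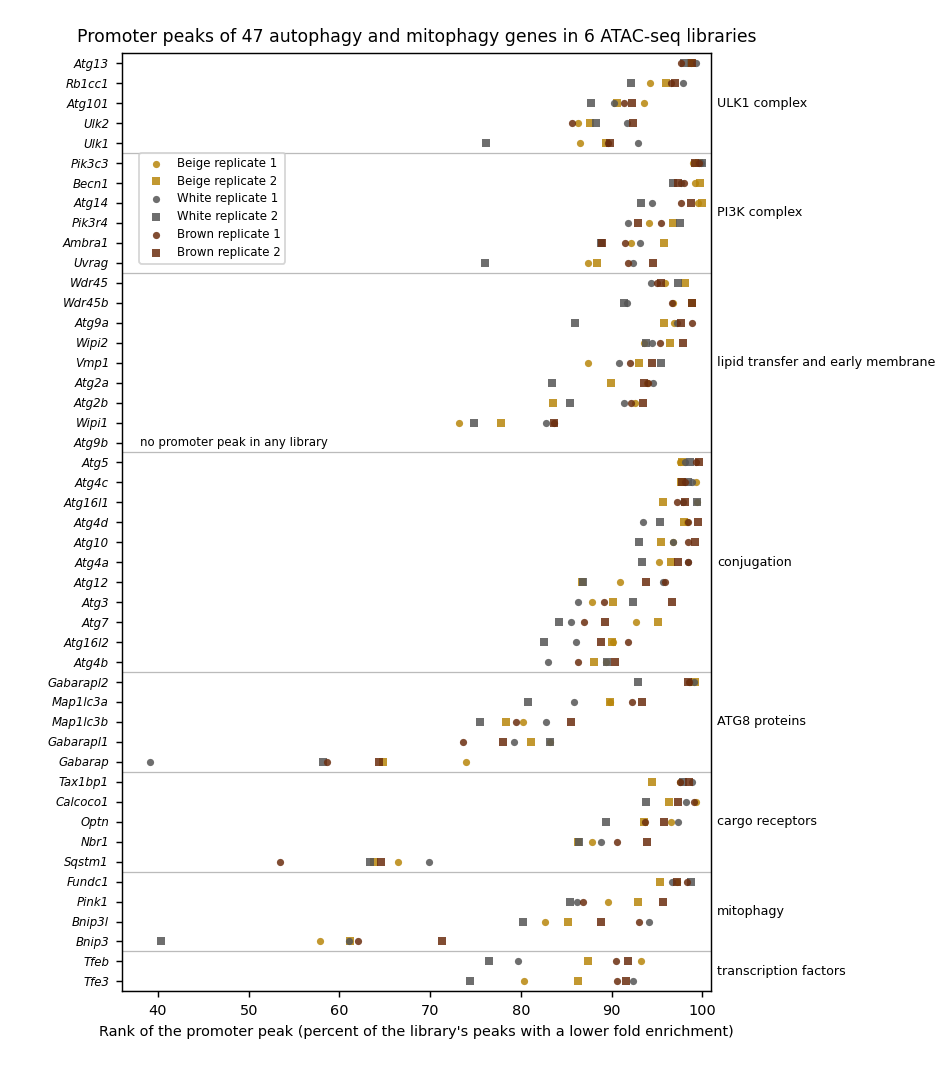
Rank percentile of the strongest promoter peak (horizontal axis, percent of the library's peaks with a lower fold enrichment) of 47 genes grouped by role. Each point is 1 library, with the condition by colour and the replicate by shape; most genes sit above 80, Gabarap, Sqstm1 and Bnip3 sit apart on the left, and Atg9b has no promoter peak.

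The exception was Atg9b (chr5:24384181-24392143), which encodes the lipid scramblase paralog of Atg9a. It had no peak with a summit within 1 kb of its start sites in any library. Within 3 kb its nearest summits lay 2238 to 2554 bp upstream, at percentiles of 94.9 and 95.4 in Beige, 82.8 and 90.3 in White, and 92.5 and 95.2 in Brown. Those summits were 226 to 542 bp from a start site of Abcb8, to which they were nearest. Away from start sites, 9 regions within 20 kb of Atg9b held a peak in some library and 4 held one in all 6.

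In what follows, percentiles of a gene are given in the order Beige replicates 1 and 2, White replicates 1 and 2, and Brown replicates 1 and 2. Differences between conditions are in normal-score units from limma, that is, in standard deviations of a normal curve fitted to the ranks of the 13531 promoters within a library, each with its SE and with p-values adjusted over all of them. Because that scale ranks promoters among promoters, genes whose libraries overlap on one scale may not overlap on the other.

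Among the 5 genes of the ULK1 complex, the median percentile was 92.1 in Beige, 89.96 in White and 91.8 in Brown. Atg13, which encodes the adaptor of the kinase, had the second highest mean of all 46 genes, with percentiles of 98.8 and 98.7, 99.3 and 98.0, and 97.6 and 98.9. Its summit lay 290 to 303 bp upstream of its start site in all libraries, in a peak shared with Harbi1 on the other strand. Ulk1, the kinase itself, stood at 86.5 and 89.4, 92.9 and 76.1, and 89.6 and 89.9, so that both White libraries lay outside the range of the other 4. The complex subunit Atg101 reached 93.6 and 90.6, 90.3 and 87.8, and 91.4 and 92.3. Its 2 White values were the lowest, but its difference between Beige and White was 0.16 ± 0.22 (limma, adjusted p = 0.728). Ulk2, the paralogous kinase, and Rb1cc1, the scaffold also known as FIP200, spanned 85.6 to 97.9.

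In normal scores, the largest difference of each comparison was found in the phosphatidylinositol 3-kinase complex. Its 6 genes had a median percentile of 97.4 in Beige, 94.3 in White and 95.9 in Brown. They did not move together, since Atg14 and Becn1 were higher in Beige than in White and Pik3c3 lower. In mean percentiles, Gabarap (69.4 in Beige, 48.6 in White) and Tfeb (90.3 and 78.1) differed more than Atg14 (99.7 and 93.9). Atg14, the subunit that directs the complex to autophagy, had percentiles of 99.5 and 99.95 in Beige, 94.5 and 93.3 in White, and 97.7 and 98.7 in Brown. Neither pair overlapped another, and Brown lay between Beige and White. Its peak in Beige replicate 2 was at chr14:47568027-47568727, over the start site at 47568434, the inner of 2 start sites of the gene (chr14:47540893-47570649, minus strand), and the 6 summits lay within 60 bp of each other beside the E-box printed above. In normal scores Atg14 stood at 1.83 and 2.88 in Beige, 0.53 and 0.55 in White, and 1.04 and 1.33 in Brown. The difference between Beige and White was 1.81 ± 0.325, and it was the only 1 of the 46 genes that passed (limma, adjusted p = 0.0418). Here 1.36% of all promoters passed. The call held without Beige replicate 1 (adjusted p = 0.0387) and was lost without Beige replicate 2 (0.180), White replicate 1 (0.0807), White replicate 2 (0.0962), Brown replicate 1 (0.0917) or Brown replicate 2 (0.0910), with differences of 1.28 to 2.34. It was also lost when peaks were ranked by −log10 q (1.08, adjusted p = 0.0667).

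Becn1, the scaffold subunit Beclin 1, had percentiles of 99.2 and 99.8, 97.6 and 96.8, and 98.0 and 97.4. Its Beige values lay above the other 4, with a difference from White of 0.85 ± 0.263 that did not pass (limma, adjusted p = 0.122). Pik3c3, the lipid kinase, had the highest mean of the 46 genes, with percentiles of 98.9 and 99.6, 99.8 and 99.97, and 99.7 and 99.2. Its White values were the highest, with a mean of 99.9 against 99.3 in Beige, which at this end of the scale made a difference of -1.06 ± 0.319 normal-score units (limma, adjusted p = 0.113). The other subunits were Pik3r4, the pseudokinase partner, at 91.9 to 97.5, the alternative subunit Uvrag at 76.0 to 94.5, and the regulator Ambra1 at 88.8 to 95.8. Uvrag was lowest in White replicate 2.

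The 9 genes of lipid transfer and early membrane include Atg9b. The other 8 had a median percentile of 93.4 in Beige, 91.6 in White and 94.5 in Brown. Atg9a, the lipid scramblase of ATG9 vesicles, stood at 96.9 and 95.8, 97.2 and 86.0, and 98.9 and 97.7. Atg2a, a lipid transfer protein, stood at 93.9 and 89.9, 94.5 and 83.4, and 94.0 and 93.6. Both were lowest in White replicate 2, with White replicate 1 at or above the Beige values. Wdr45b, a phosphoinositide-binding propeller protein, had percentiles of 96.8 and 98.8, 91.8 and 91.3, and 96.7 and 98.9. Its White values were below the other 4, by 0.84 ± 0.292 against Beige (limma, adjusted p = 0.148) and by 0.81 ± 0.292 against Brown (adjusted p = 0.199), and neither passed. Wipi1, another such protein, had the lowest mean of the 8 at 79.3, while Wipi2, Wdr45, Atg2b and the membrane protein Vmp1 lay between 83.5 and 98.1.

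The 11 conjugation genes had median percentiles of 95.9 in Beige, 94.4 in White and 97.6 in Brown. Atg5, which is joined to Atg12 in the conjugate that lipidates ATG8 proteins, stood at 97.5 and 97.8, 98.1 and 98.6, and 99.3 and 99.7. The 3 conditions did not overlap, with Beige lowest and Brown highest, and the difference between Brown and Beige was 0.76 ± 0.240 (limma, adjusted p = 0.271). Atg10, the enzyme that transfers ATG12 to ATG5, stood at 96.7 and 95.5, 96.8 and 93.0, and 98.5 and 99.2. Brown was highest, by 0.71 ± 0.242 over White (limma, adjusted p = 0.179). Atg3, the enzyme that transfers ATG8 proteins to lipid, stood at 87.8 and 90.2, 86.3 and 92.3, and 89.2 and 96.6, and its conditions overlapped. Atg7, the activating enzyme of both systems, had percentiles of 92.6 and 95.1, 85.5 and 84.3, and 87.0 and 89.2. Beige lay above the others, by 0.60 ± 0.234 over White (limma, adjusted p = 0.190). Atg4d, a protease of the ATG4 family that processes ATG8 proteins, had percentiles of 98.3 and 97.9, 93.4 and 95.4, and 98.4 and 99.6, and its Brown values were 0.95 ± 0.269 above White (limma, adjusted p = 0.132). The other 6 were the proteases Atg4a, Atg4b and Atg4c, the ubiquitin-like Atg12, and Atg16l1 and Atg16l2, whose products bind the ATG5 conjugate. They ranged from 82.5 to 99.4.

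The 5 ATG8 genes had the lowest medians of the groups of 4 or more genes, at 82.2 in Beige, 81.2 in White and 82.5 in Brown. Gabarapl2 ranked high, at 92.9 to 99.2, and carries the ETS match printed above. Gabarap stood far lower, at 74.0 and 64.9, 39.1 and 58.2, and 58.7 and 64.3. Its strongest peak in White lay at an upstream start site, 269 and 322 bp wide, whereas in Beige and Brown it lay at a start site farther downstream and was 407 to 1064 bp wide. Map1lc3a, Map1lc3b and Gabarapl1, which encode other ATG8 proteins, ranged from 73.6 to 93.4. Of the 5 cargo receptors, Optn, Nbr1, Calcoco1 and Tax1bp1 ranged from 86.3 to 99.3. Sqstm1, which encodes p62, stood at 66.4 and 63.8, 69.9 and 63.4, and 53.4 and 64.6, in peaks of 913 to 1103 bp.

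The 4 mitophagy genes had median percentiles of 87.6 in Beige, 86.5 in White and 91.1 in Brown. Pink1, the kinase that marks damaged mitochondria, stood at 89.6 and 92.9, 86.2 and 85.5, and 86.8 and 95.7. Its White values lay below the other 4, but the difference between Beige and White was 0.29 ± 0.282 (limma, adjusted p = 0.5996). Bnip3, a mitophagy receptor induced in hypoxia, had the lowest mean of the 46 genes at 59.0, with percentiles of 57.8 and 61.2, 61.1 and 40.4, and 62.0 and 71.3. Its paralog Bnip3l ranged from 80.2 to 94.1 and the receptor Fundc1 from 95.3 to 98.7. Tfeb stood at 93.2 and 87.4, 79.7 and 76.5, and 90.5 and 91.9. Its White values were the lowest, by 0.62 ± 0.233 against Beige (limma, adjusted p = 0.173). Tfe3 ranged from 74.3 to 92.3.

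Gabarap, Sqstm1 and Bnip3 ranked higher by peak significance than by fold. When peaks were ranked within each library by −log10 q, Sqstm1 reached percentiles of 83.3 to 91.6, Bnip3 70.4 to 87.8 and Gabarap 67.0 to 93.3. Gabarap and Bnip3 still held the 2 lowest −log10 q values of the 46 genes, 16.3 in White replicate 1 and 16.9 in White replicate 2. The deposited fold compares the summit with its surroundings, and −log10 q is not independent of it.

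Over the 46 genes, low p-values were no more common than among all promoters. Between Beige and White 7 genes had an unadjusted p below 0.05 (limma; 5 higher and 2 lower in Beige), where all promoters gave 20.6% (10.7% higher and 9.84% lower), and the median difference was 0.017 against -0.019 for all promoters. Besides those already named, Tax1bp1 was in this set at -0.57 ± 0.249. Between Brown and Beige none passed after adjustment, nor did any promoter at all (0%), and 5 had an unadjusted p below 0.05 (2 higher and 3 lower in Brown) against 11.9% of all promoters (5.20% higher and 6.67% lower). Atg14 and Becn1 were lowest there, at -1.17 ± 0.325 (limma, adjusted p = 0.244) and -0.89 ± 0.263 (adjusted p = 0.261). Between Brown and White none passed, again as for all promoters (0%), and 5 had an unadjusted p below 0.05 (4 higher and 1 lower in Brown) against 17.9% (8.79% higher and 9.08% lower). Pik3c3 was lowest there, at -0.99 ± 0.319 (limma, adjusted p = 0.167). The 3 comparisons share their libraries and are not independent.

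**Figure D2:**
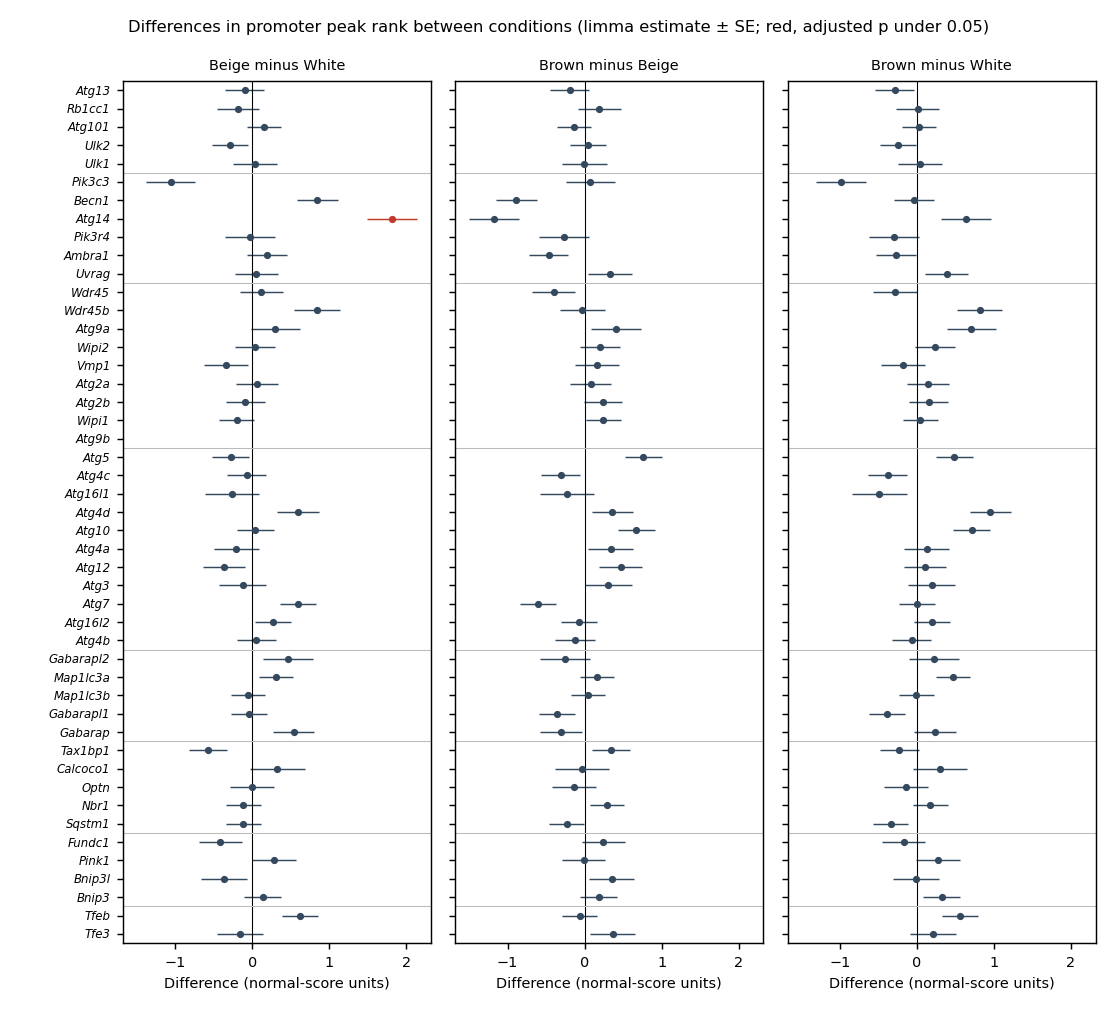
Difference in promoter rank between conditions for 46 genes in the role order of the plot of percentiles (points, limma estimate in normal-score units; bars, SE; grey lines part the roles). Atg14 in Beige minus White, at 1.81, is the single red point with an adjusted p under 0.05, and most points lie near 0.

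Counts of genes whose libraries did not overlap are read against the same shares of all promoters. In normal scores, both Beige libraries were above both White libraries for 11 of 46 genes and below them for 6, where all promoters gave 24.3% and 25.9%. The 11 included Atg14, Becn1, Atg7, Atg4d, Wdr45b, Pink1 and Tfeb, and the 6 were Atg5, Nbr1, Pik3c3, Sqstm1, Tax1bp1 and Ulk2. Brown lay above Beige for 13 genes and below it for 11 (27.5% and 22.5% of all promoters). Brown lay above White for 11 and below it for 7 (24.4% and 23.6%).

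The summit kept its place in most genes. For 25 of 46 genes (54.3%) the summit lay within 100 bp of a start site in all 6 libraries, as it did for 44.1% of all promoters, and for 29 the 6 summits lay within 100 bp of each other (61.6% of all promoters). Distances are from the nearest start site of the gene, which was not the same site in all libraries for Sqstm1, Ambra1 and Pink1. Sqstm1 changed place with condition. Its summit lay 580 and 596 bp downstream of that site in White and between 18 bp upstream and 8 bp downstream in the other 4 libraries. The peak covered both places in all libraries but Beige replicate 2, so the change was mainly in the highest point of a wide open stretch. Ambra1 had summits 312 and 308 bp downstream in White and 205 bp downstream in Brown replicate 2, and 6 to 12 bp upstream in the other libraries. Pink1 had its summit 500 to 518 bp downstream in 5 libraries and 10 bp upstream in White replicate 2. White replicate 2 also stood alone in the summits of Atg101 (309 bp upstream), Atg4a (450 bp upstream), Atg4b (242 bp upstream) and Atg7 (226 bp downstream).

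**Figure D3:**
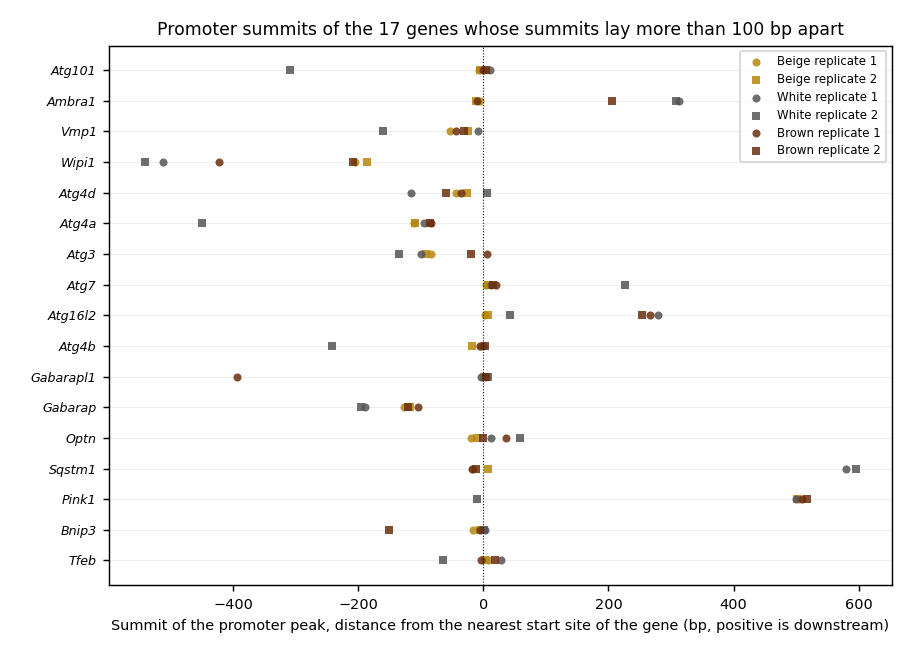
Distance of the promoter summit from the nearest start site of the gene (horizontal axis, bp, positive downstream) for the 17 genes whose 6 summits spread over more than 100 bp, 1 point per library. Sqstm1 and Ambra1 have their White summits to the right of the start. For Tfeb, Gabarap, Optn, Sqstm1, Ambra1, Pink1 and Bnip3 the nearest start site differs between libraries. Their points thus lie closer together here than in the genome, most of all for Tfeb and Gabarap.

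Several of these promoters were shared with a neighbour. For 9 of 46 genes (19.6%), a start site of another protein-coding gene on the opposite strand lay within 1 kb of the strongest summit, against 15.5% of all promoters. The pairs were Atg13 with Harbi1, Atg4a with Psmd10, Atg9a with Ankzf1, Vmp1 with Ptrh2, Atg12 with Ap3s1, Atg3 with Slc35a5, Atg2b with Gskip, Nbr1 with Brca1 and Atg4b with Thap4. Each pair had the same strongest promoter peak in all 6 libraries, so its value cannot be given to 1 gene of the pair. Wdr45 shared its peak with Gm45208 on the same strand.

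ETS and E-box matches, of which those printed above are examples, were counted in all promoters. Within 100 bp of the strongest summit, 10 of 46 genes held CCGGAAG on either strand, namely Atg101, Atg16l1, Atg3, Atg7, Bnip3l, Gabarapl2, Rb1cc1, Vmp1, Wdr45 and Wdr45b, where the share of all promoter windows was 16.3%. Of the 8 genes named at the outset as examined by the study, Atg3 and Atg101 held it and Atg2a, Atg5, Ulk1, Atg9a, Atg10 and Pink1 did not in this window. The match is stricter than the core named by the paper, and the window is shorter than the promoters it cloned. The paper reported Ets1 binding at Atg2a, Atg3, Atg5, Atg101 and Ulk1 by ChIP-seq. In its reporter assays, mutating predicted sites in the Atg9a and Atg10 promoters reversed the effect of Ets1. A window without CCGGAAG can therefore still hold an Ets1 site. The palindromic E-box CACGTG was found in Atg14, Atg3 and Bnip3 (7.77% of all promoters). The longer TCACGTGA, which contains it, was found in Atg3 alone (1.37%). The cAMP response element TGACGTCA, searched after the values had been seen, was found in Atg5, Becn1 and Map1lc3a (3.06%). Base composition was close to that of other promoters, with a median GC of 64.9% against 65.7%. These letters mark a sequence, not a bound factor.

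Away from start sites, 434 regions with a peak in at least 1 library lay within 20 kb of the genes, of 116360 near any protein-coding gene. Of these, 228 were intronic, 11 overlapped exons, 78 lay upstream and 117 downstream, and for 253 the nearest protein-coding start site belonged to one of the 47 genes. The highest counts were 47 for Uvrag (256121 bp), 38 for Vmp1 (99972 bp), 36 for Atg7 (217518 bp) and 25 for Atg10 (288613 bp). Length alone did not set the count, since Ambra1 (188716 bp) held 20 and Atg4a (207364 bp) held 7. A region near a gene was not shown to act on it. Peaks were present in all 6 libraries in 152 regions (35.0%), against 26.9% of regions near all genes, and 242 (55.8%, against 65.8%) had peaks in a set of libraries that followed no condition.

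Regions in which peaks were called in both libraries of some conditions and in neither library of the others were few. Beige alone held 18 (4.15%, against 2.26% for all genes), White alone 4 (1.27% for all genes) and Brown alone 4 (0.883%). Beige and Brown without White held 7 (1.43%), White and Brown without Beige 4 (0.235%), and Beige and White without Brown 3 (1.25%). The Beige regions lay near 12 genes, with 4 near Atg7 and 2 each near Ambra1, Atg16l1 and Vmp1. The 2 Beige lists were not equally long, and Beige replicate 2 was the longest of all. With all lists cut to the 109143 peaks of the shortest, Beige alone held 16 of 388 regions (4.12%, against 1.94% for all genes). The 2 shares were closer within 5 kb of genes (3.14%, against 2.23%) and within 50 kb (2.79%, against 2.21%). Without Beige replicate 2 they were 8.52% and 7.16%, and without Beige replicate 1 12.7% and 9.67%. A missing peak means that none passed the authors' q threshold of 0.05, not that the site was closed.

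**Figure D4:**
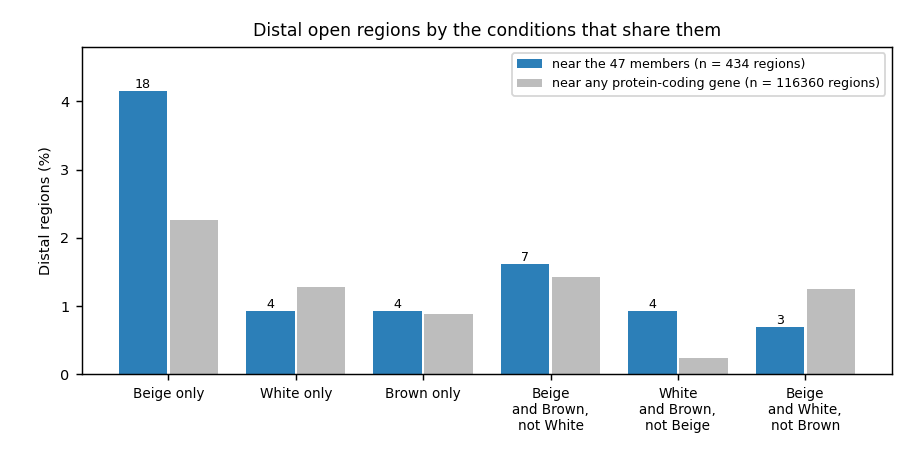
Percent of distal regions (vertical axis) in each class of conditions that share them, for 434 regions near the 47 genes (blue, number of regions above the bar) and 116360 regions near any protein-coding gene (grey). The Beige-only bar, 4.15% against 2.26%, is the tallest.

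The strongest of these regions by mean percentile was in an intron of Uvrag (chr7:99107630-99107866), with percentiles of 82.8 and 84.6 in Beige and 44.6 and 77.0 in White and no peak in Brown. Its −log10 q was 24.0 and 30.7 in Beige and 6.12 and 13.6 in White. A second Uvrag region of this class (chr7:99095272-99095508) stood at 48.3 to 61.3. Thus Uvrag, whose promoter was open in all libraries, held 2 intronic regions without a peak in Brown.

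Among Beige-only regions, the highest lay 7842 bp upstream of Wipi1 (chr11:109618982-109619385), at percentiles of 63.8 and 70.4 and −log10 q of 17.7 and 27.9. One downstream of Atg4a (chrX:141175486-141175690) stood at 64.9 and 68.2, and 1 in an intron of Ambra1 (chr2:91779249-91779477) at 69.0 and 40.5. Atg10 held intronic regions of 3 classes. Its White-only region (chr13:91118244-91118433) had percentiles of 59.9 and 57.3 and −log10 q of 7.96 and 6.94, and the region shared by Beige and Brown (chr13:91129156-91129470) had 42.4 and 51.7 in Beige and 49.9 and 73.2 in Brown. Another Atg10 region was shared by White and Brown (chr13:91046892-91047154), at 6.64 to 37.3. Ambra1 also held a region of Beige and Brown (chr2:91832263-91832850) at 46.8 to 58.9. The Brown-only region of highest rank, downstream of Atg16l2 (chr7:101245766-101246005), had percentiles of 55.3 and 50.3; it was named after its values had been seen.

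**Figure D5:**
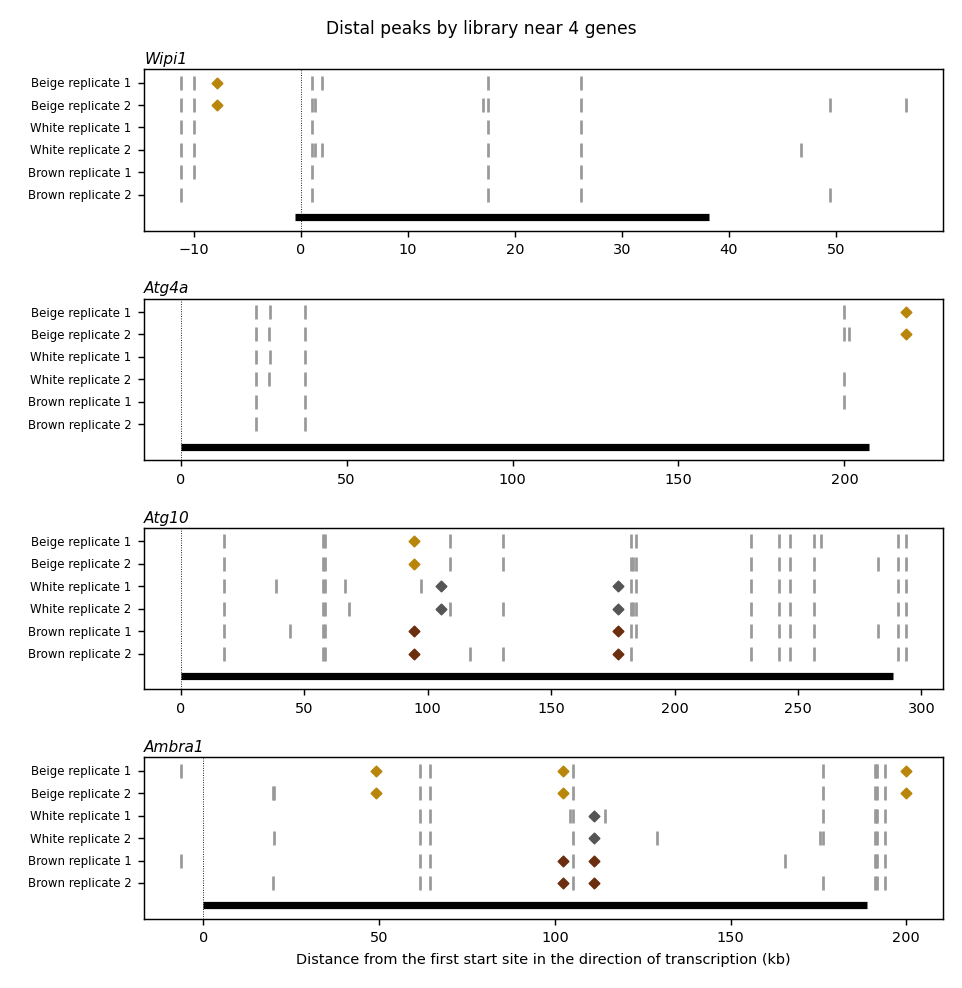
Distal peaks near 4 genes by library (rows), at their distance from the first start site in the direction of transcription (horizontal axis, kb). Coloured diamonds are regions with peaks in both libraries of some conditions and in neither of the others, grey ticks are other regions, and the black bar is the gene; Atg10 and Ambra1 each hold several classes, and the Wipi1 and Atg4a diamonds are in Beige alone.

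In distal windows of 100 bp to each side of the summit, motifs searched after the regions had been seen gave counts near these genes as follows, each beside the share over all distal windows. The AP-1 match was found in 102 of 434 windows (22.0% of all), the C/EBP match in 55 (12.9%) and the CTCF match in 52 (11.1%). The glucocorticoid receptor palindrome, searched as GNACA and TGTNC with 3 bases between them, was found in 2 (0.663%). The PPAR direct repeat, searched as AGGTCA and AGGTCA with 1 base between them, was found in none (0.0610%). Since this exact match was rare in all distal windows, its absence here does not show that PPAR sites are lacking. Of the 18 Beige-only windows 6 held the CTCF match, and the share over all 2626 Beige-only windows was 21.7%. None of the 4 White-only or 4 Brown-only windows held it, where the shares over all such windows were 5.66% and 4.09%. The CTCF match was added after the printed windows had been read.

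Of the 152 regions with a peak in all 6 libraries, none passed between any conditions. For all 31253 such regions, 0.00640% passed between Beige and White, 0% between Brown and Beige and 0.240% between Brown and White (limma). Unadjusted p-values below 0.05 were found for 25 regions between Beige and White (17.3% of all regions), 20 between Brown and Beige (16.4%) and 30 between Brown and White (16.7%). Both Beige libraries lay above both White libraries in 33 regions and below them in 43 (23.4% and 25.3% of all regions). Brown lay above Beige in 51 and below it in 32 (29.1% and 24.7%), and above White in 38 and below it in 33 (23.1% and 22.3%). The 4 regions of lowest adjusted p are given as values, chosen after these had been seen. An intronic region of Bnip3l (chr14:66990454-66990982) had percentiles of 73.4 and 74.5 in Beige, 95.01 and 98.8 in White, and 97.5 and 92.1 in Brown, so that Beige lay below the other 4 (-1.80 ± 0.387 against White, limma, adjusted p = 0.0783). It passed when peaks were limited to q under 0.00001 (limma, adjusted p = 0.0415). A region downstream of Wdr45 (chrX:7733706-7734209), nearer to the start of Praf2, had percentiles of 90.8 and 90.9, 39.1 and 60.5, and 77.5 and 50.04, with Beige above the other 4 (1.80 ± 0.427 against White, limma, adjusted p = 0.0887).

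The other 2 regions were lowest in White. The intronic region of Tfeb (chr17:47762485-47763262) stood at 66.3 and 65.7, 41.7 and 7.94, and 74.1 and 82.4. Brown exceeded White there by 1.97 ± 0.412 (limma, adjusted p = 0.0560). The intronic region of Atg7 (chr6:114746545-114747032) stood at 49.3 and 40.5, 19.6 and 9.71, and 62.8 and 77.6. Its Brown values exceeded White by 1.85 ± 0.388 (limma, adjusted p = 0.0560). Neither passed, and at both sites the 3 conditions did not overlap. The Tfeb region passed without White replicate 1 (limma, adjusted p = 0.0413).

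Another 34 genes of the pathway, listed by function and not for how they moved, cover membrane fusion, lysosomal enzymes and pumps, mTORC1 and further mitophagy factors. All 34 had a promoter peak in all 6 libraries. Between Beige and White 3 passed, where 1.36% of all promoters did. Usp30, a mitochondrial deubiquitinase that opposes mitophagy, was higher in Beige by 1.11 ± 0.223 (limma, adjusted p = 0.0475). Neu1, a lysosomal sialidase, was also higher, by 1.09 ± 0.223 (limma, adjusted p = 0.0487). Atp6v1h, a subunit of the lysosomal proton pump, was lower, with a difference of -1.20 ± 0.222 (limma, adjusted p = 0.0437). With any 1 library left out, 0 to 9 of all promoters passed in this comparison. Usp30 stood at percentiles of 96.2 and 95.8 in Beige, 81.7 and 78.8 in White, and 89.5 and 88.1 in Brown. Between Beige and White, 8 of the 34 had an unadjusted p below 0.05 (limma, 6 higher and 2 lower in Beige), against 20.6% of all promoters. None of the 34 passed between Brown and Beige or between Brown and White. There 1 and 5 genes had an unadjusted p below 0.05 (limma), against 11.9% and 17.9% of all promoters.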

How the data were processed

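The 6 deposited peak lists of the ATAC-seq libraries are 1 per library. By the submitters' processing notes and the paper, the authors used Trimmomatic 0.36 for trimming, BWA 0.7.17 for alignment (build mm10) and, on each library by itself, MACS2 2.2.8 for peaks at q under 0.05. The deposited fold enrichment is a ratio of summit pileup over local background, and the deposited −log10 q belongs to the summit. Neither is comparable between libraries, so both were used as ranks within a list, or printed to show how far a peak stood above the threshold. Intervals with several summits were counted once, at the summit of highest −log10 q.

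Start sites came from protein-coding transcripts of the GENCODE vM21 basic set, and sequence from the RefSeq GRCm38.p6 genome. Distal regions were peaks merged at 1 bp of overlap, with no summit within 1 kb of a start site and within 20 kb of a gene. Within-library ranks were turned to normal scores and fitted with limma 3.58.1 (R 4.3.3) over all 13531 promoters, or all 31253 regions, with a peak in all 6 libraries, all groups together, with Benjamini-Hochberg adjustment and a threshold of 0.05. The fit was tested on simulated promoter scores with 200 genes shifted in Beige. Between Beige and White, 0 of the 200 were called at a shift of 0.5 or 1 normal-score units, and 158 at a shift of 2. No other gene was shifted there, whereas in the data 184 promoters passed between Beige and White. Usp30 and Neu1 were called at differences of 1.11 and 1.09, so the simulated counts do not give the sensitivity of the real fit. A difference that did not pass was still not shown to be absent. Other steps used Python 3.11.15 (pysam 0.24.0). The alternatives were ranks by −log10 q, q under 0.00001, a 3 kb promoter, intervals instead of summits, ranks among all peaks, equal list lengths, 5 and 50 kb around genes, windows of 50 and 250 bp, the replicate number as a block, and each library left out.

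The members and lists were chosen with earlier results of these data known. Genes named with values were 8 that the study examined, genes lacking a peak, the 3 highest and 3 lowest means, the 3 largest differences per contrast, called genes or regions, and the 8 strongest distal regions present by condition; others were named to account for every member. By the study's account the Beige and White replicates are biological; the sources used here do not say this of the Brown libraries, so p-values may measure technical spread there.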

Additional observations from a re-analysis of the deposited data

How the results depend on the processing

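The 46 genes with a promoter peak in all 6 libraries stayed 46 under every setting except the 3 kb promoter, where Atg9b joined. Ranking by −log10 q left 0 autophagy promoters called between Beige and White and raised the medians to 96.8 in Beige, 94.6 in White and 95.8 in Brown; the 3 kb promoter gave 93.9 in Beige. Leaving out 1 library gave medians of 93.3 to 93.4, 89.1 to 93.0 and 93.4 to 94.5. Of all promoters, 184 passed between Beige and White, against 370 ranked by −log10 q, 121 with 3 kb and 71 ranked among all peaks; between Brown and White 0 became 3, 5 with q under 0.00001, and 8 with 3 kb. Leaving out 1 library gave 0 to 9, 0 to 5 and 0 to 1 for Beige against White, Brown against Beige and Brown against White, with 0 to 1, 0 and 0 among the 46 genes; fewer samples enter these fits.

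Replicate numbers did not pair the samples, since the labels give no shared batch and the deviations correlated at -0.036 to 0.084 (r across features). With them as a replicate block Atg14 stayed called (adjusted p = 0.0369). In distal regions the block gave 2 autophagy regions (323 of all) between Beige and White, 1 each near Bnip3l and Wdr45, 0 (53) between Brown and Beige and 4 (561) between Brown and White, 1 each near Tfeb, Atg7, Atg4c and Tax1bp1. Of all distal regions, 2 passed between Beige and White, against 0 ranked among all peaks, 0 by −log10 q and 105 with q under 0.00001, with 1 autophagy region; 34 with q under 0.00001 between Brown and Beige; and 75 between Brown and White, against 0 ranked among all peaks. Leaving out 1 library gave 0 to 1, 0 and 0 to 98, with 0, 0 and 0 to 1 autophagy regions; the 1 was the Tfeb intron, without White replicate 1.

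Distal classes followed the distance by construction. Regions open in all libraries numbered 101 within 5 kb and 251 within 50 kb, Beige-only 9 within 5 kb, White-only 10 within 50 kb, Brown-only 2 and 7, Beige with Brown 11 within 50 kb, and Beige with White 6 within 50 kb. With q under 0.00001, Brown-only fell to 1, White with Brown to 0, and Beige with White rose to 6; equal list lengths gave 2 for White with Brown. Leaving out 1 library, which loosens its class, gave 153 to 162 for all libraries, 18 to 53, 4 to 45 and 4 to 21 for Beige, White and Brown alone, 7 to 14 for Beige with Brown, 4 to 7 for White with Brown and 3 to 13 for Beige with White. The ETS match was in 6 promoters at 50 bp (11.3% of all promoters), and the E-box in 6 at 250 bp (13.7%). Of 108 values for the named differences under these settings, 102 kept their direction and side of the threshold and 6 kept the direction alone, all for Atg14 between Beige and White. Atg14 was the only one of these differences called in the main fit. The others kept their side by staying uncalled, so the 102 are no measure of how stable a call is. The causes of these shifts were not tested, nor was depth.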
